A study of Mus musculus with 7 samples.

Results

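The smooth muscle contractile apparatus of the mouse uterus was followed through 39 genes, chosen by symbol as parts of the myometrial filaments, dense bodies, calcium stores and contraction signals. They were chosen with earlier results of these data known. All 39 were among the 24964 gene symbols of the expression table, and all 39 belonged to the 13334 genes with a mean of at least 1 FPKM (fragments per kilobase of gene, a level corrected for gene length and for sequencing depth) that were tested. RNA was sequenced from whole uterus of mice aged 12 weeks, all recorded in diestrus. The 3 control libraries, numbered 1, 2 and 4, carried Pgrcre/+, an allele in which the progesterone receptor gene drives Cre recombinase. The 4 libraries called Foxl2LsL here carried Pgrcre/+ together with Foxl2LsL/+, so both groups had the Cre allele. By its title the study is about raised FOXL2, a transcription factor of the forkhead family, in the uterus, and the design sets the 2 genotypes side by side. Pgr-driven Cre is known to act in epithelium, stroma and smooth muscle of the uterus, so the groups differ by an allele that is not restricted to muscle.

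Smooth muscle contracts when calcium binds calmodulin, which activates myosin light chain kinase, and the phosphorylated myosin then pulls on actin filaments anchored in dense bodies. A myosin phosphatase removes the phosphate, and protein kinase G, the kinase activated by cyclic GMP, favours that relaxation. Most contractile genes are transcribed through serum response factor (SRF) bound to the CArG box, with myocardin as its coactivator in smooth muscle.

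As a check of the labels, Foxl2 stood at 11.1, 19.3 and 12.9 FPKM in controls 1, 2 and 4 and at 12.7, 14.3, 14.8 and 17.2 FPKM in Foxl2LsL 1 to 4. The groups overlapped, and the difference was 0.06 on the log2(FPKM + 1) scale (adjusted p = 0.818, limma with Benjamini-Hochberg adjustment). Every direction given below is therefore between libraries as they were labelled. The denominators recovered from the FPKM values ranged from 47800000 to 67200000 fragments per library, and the 39 genes rested on 301 (Pln) to 150863 (Flna) fragments in a library, so counting error was small for all of them. The labels do not say that libraries came from separate animals, and p-values measure the spread between these 7 libraries.

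The 39 genes gave a mixed result: some were higher in Foxl2LsL, few were lower and most did not pass, with a wide spread among controls. With all 7 libraries, 10 of 39 were higher in Foxl2LsL at an adjusted p of at most 0.05 and 2 were lower, where 16.7% of all tested genes were called higher, 23.9% lower and 40.6% in either direction. The members higher were Myh11, Myl9, Tagln, Lmod1, Ppp1r12b, Prkg1, Synm, Pgm5, Pln and Oxtr, and the members lower were Cacna1c and Atp2a2. The other 27 did not pass, so the share called in either direction, 30.8%, lay below the background. Positive log2 fold changes were found for 31 of 39 members (79.5%) against 44.2% of all tested genes, with a median of 0.27 against -0.05. Because the members were chosen with earlier results known, these values describe the set and test nothing. Members also varied together between libraries, so they are not 39 separate observations. All 4 Foxl2LsL libraries lay above all 3 controls for 11 members, where 19.7% of tested genes did so, and below all controls for 2, where 27.9% did. In whole tissue, a change in the number of muscle cells and a change in RNA per muscle cell cannot be told apart.

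**Figure D1:**
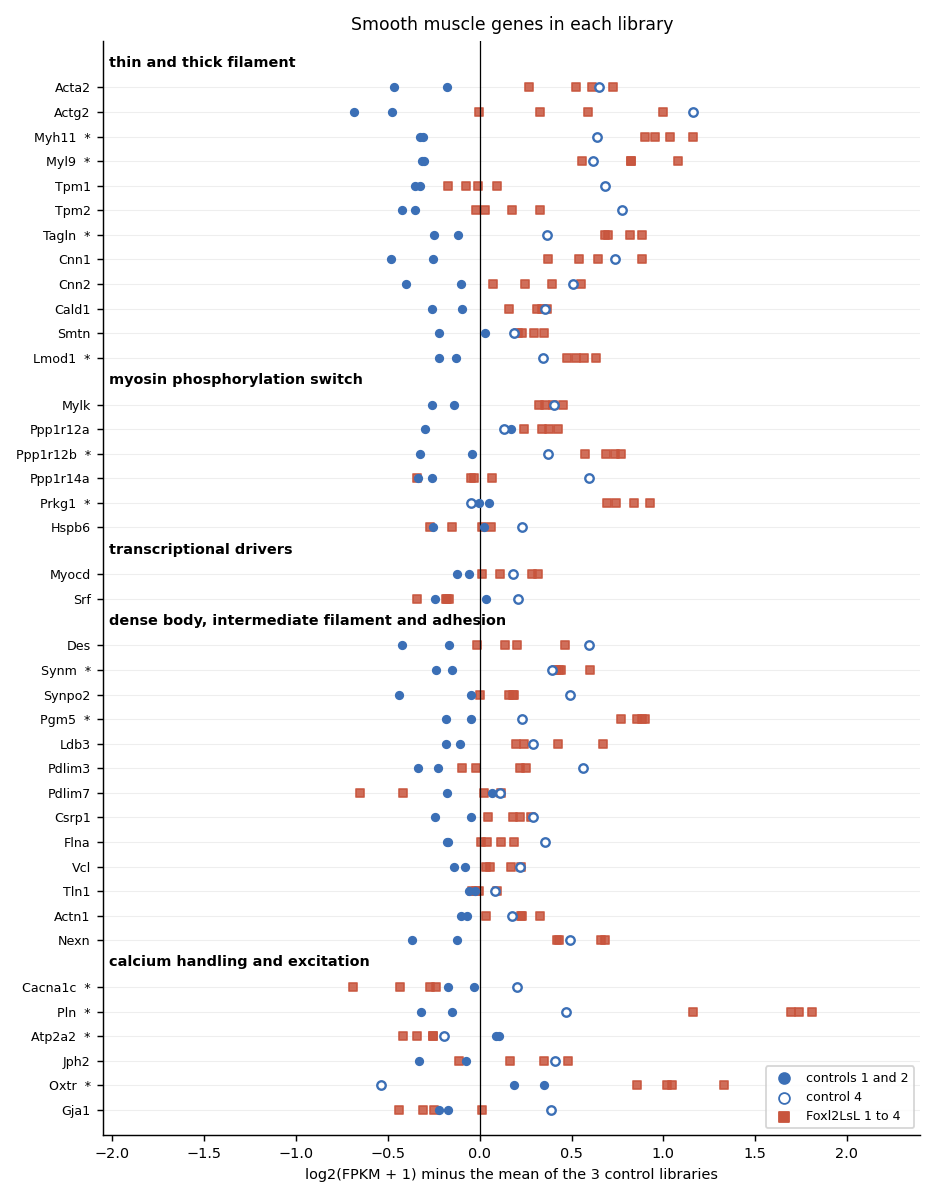
Each of the 39 genes in each library, as log2(FPKM + 1) minus the mean of the 3 control libraries, grouped by role; filled circles are controls 1 and 2, the open circle is control 4, squares are Foxl2LsL 1 to 4, and a star marks the 12 genes past an adjusted p of 0.05. Control 4 sits among or beyond the squares for most filament and adhesion genes, and apart from them for Prkg1, Pgm5, Pln and Oxtr.

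The spread of the controls came from 1 library for most members. Control 4 was the highest of the 3 controls for 35 of 39 members (89.7%), against 33.3% of all tested genes. Its excess over the mean of controls 1 and 2 had a median of 0.55 on the log2 scale over the members and 0.94 over the 12 filament genes, against -0.04 over all tested genes. Controls 1 and 2 differed from each other by a median of -0.02. Control 4 lay within the range of the Foxl2LsL libraries for 14 members, above all of them for 14 and below all of them for 11. Controls 1 and 2 both lay below every Foxl2LsL library for 30 of 39 members (76.9%), where 24.2% of all tested genes did. The median SD of a member on the log2 scale was 0.339 among controls and 0.124 among Foxl2LsL libraries, compared with 0.142 and 0.118 over all tested genes, and the control SD was the larger for 36 of 39 members (92.3%) against 58.8%. The limma fit pools the variance of both groups for each gene. Where the smaller control group spread more, the SE and adjusted p given here tend to be too small.

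Leaving out control 4 changed the count of calls. Without it, 28 of 39 members were higher and 1, Atp2a2, was lower, where 16% of all tested genes were higher and 24% lower in the same fit. These 28 held the 10 of the full comparison and 18 more, among them Acta2, Actg2, Cnn1, Tpm1, Tpm2, Mylk, Des and Flna. Without control 1, 8 members were higher and 1, Cacna1c, was lower, against 15% and 21.6% of all genes. Without control 2, 7 members were higher and 1, Srf, was lower, against 12.4% and 16.5% of all genes. Leaving out a Foxl2LsL library gave 8 or 9 members higher and 0 or 1 lower. Calls over all 13334 tested genes also fell in these fits. They were 1636 to 2037 higher and 2339 to 2838 lower, against 2224 and 3185 with all 7 libraries. Calls that held in all 7 fits with a library left out were those of Myh11, Tagln, Ppp1r12b, Prkg1, Pgm5, Pln and Oxtr. The median log2 fold change of the members was 0.47 without control 4 and 0.16 without control 2.

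**Figure D2:**
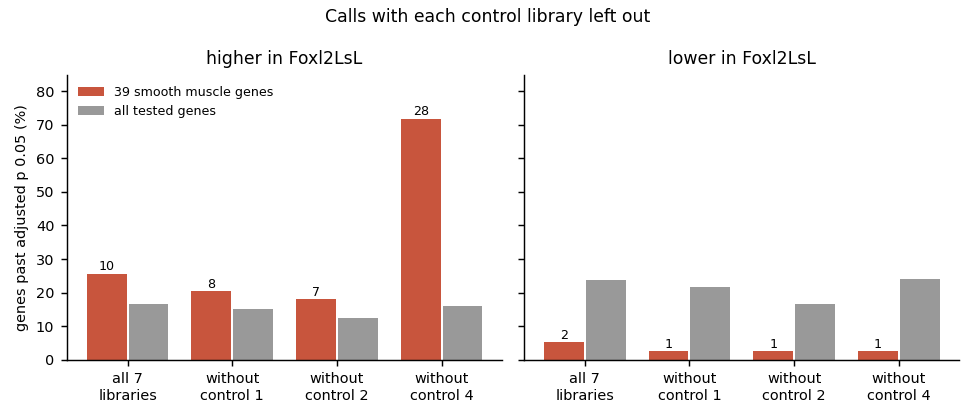
Percent of the 39 smooth muscle genes (coloured bars, with the number of genes above each) and of all 13334 tested genes (grey bars) past an adjusted p of 0.05, higher at left and lower at right, with all 7 libraries and with each control left out. The count of higher members was 10 with all libraries, 8 and 7 without controls 1 and 2, and 28 without control 4. The grey bars ran from 12.4% to 16.7% at left and from 16.5% to 24% at right.

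Other cell types also differed between these libraries. The 9 pericyte markers summed to 193 FPKM in control 4, the highest library, against 99.98 and 154 in controls 1 and 2 and 91.4 to 118 in Foxl2LsL, and 5 of these 9 markers were lower in Foxl2LsL. The other 4 (Kcnj8, Abcc9, Notch3 and Mcam) had positive log2 fold changes and did not pass. The summed endothelial markers were also highest in control 4, at 229 FPKM, with 177 in each of the other controls and 114 to 135 in Foxl2LsL. Of these 8 markers 6 were lower in Foxl2LsL, 1, Vwf, was higher (log2 fold change 0.615, adjusted p = 0.00108, limma) and Tek did not pass. Summed uterine epithelium markers were lowest in control 4, at 802 FPKM, against 1012 and 1458 in controls 2 and 1 and 1143 to 1617 in Foxl2LsL, with 2 of 9 higher and 0 lower. Of 10 stroma markers 5 were lower in Foxl2LsL (Hand2, Hoxa11, Hoxa10, Wt1 and Thy1) and 1, Dcn, was higher, with a median log2 fold change of -0.61. Their summed FPKM, of which Dcn made up the largest part (367 to 467 FPKM in controls, 922 to 1034 in Foxl2LsL), was 809 to 1027 in controls and 1243 to 1387 in Foxl2LsL. Adipocyte markers summed to 61.8 FPKM in control 4 against 6.05 and 10.4 in the other controls, and to 22.2, 90.5, 166 and 28.0 in Foxl2LsL 1 to 4, with Adipoq at 0 in control 1. Of the 7 adipocyte markers tested, 2, Lipe and Pck1, were higher. Adipoq, Plin1, Cidec, Fabp4 and Retn did not pass (adjusted p of 0.374 to 0.532, limma). Skeletal muscle markers summed to 86.2 FPKM in control 4, mostly Acta1 (51.8 FPKM) and Tnni2 (21.5 FPKM), against 29.4 to 36.7 in the other controls and 17.2 to 27.9 in Foxl2LsL, while the skeletal myosin Myh4 was at 0 in every library. The part of these cell types in the muscle result was not tested.

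The 12 genes of the thin and thick filaments had the largest summed FPKM of the 5 groups of members and the largest median SD among controls, 0.544 on the log2 scale. Of them 4 were higher, 0 were lower and 8 did not pass, with a median log2 fold change of 0.51. Of all tested genes 16.7% were higher and 23.9% lower. Their summed FPKM was 1417, 1331 and 2571 in controls 1, 2 and 4 and 2853, 2229, 2479 and 2551 in Foxl2LsL 1 to 4, so that the sum in control 4 was inside the Foxl2LsL range. All 12 were highest among controls in control 4, and in all 12 both other controls lay below every Foxl2LsL library.

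Gene positions here are RefSeq spans on GRCm38, with strands from GENCODE M21. Myh11, the smooth muscle myosin heavy chain (chr16:14194527-14292188, minus strand), measured 81.0, 82.0 and 159 FPKM in controls 1, 2 and 4 and 229, 199, 191 and 210 FPKM in Foxl2LsL 1 to 4. Control 4 was 1.95 times the mean of controls 1 and 2 yet still below the lowest Foxl2LsL library, so the groups did not overlap. The mean rose from 107 ± 44.8 (SD, n = 3) to 207 ± 16.4 (SD, n = 4), and the fitted log2 change was 1.01 ± 0.23 (SE; adjusted p = 0.0107, limma). Tagln, transgelin or SM22, an actin-binding protein of the smooth muscle thin filament (chr9:45929628-45936058), measured 314, 286 and 438 FPKM in controls and 628, 552, 602 and 546 FPKM in Foxl2LsL. These groups did not overlap either, and the rise was 0.77 ± 0.15 (SE; adjusted p = 0.00576, limma). Lmod1, leiomodin, which nucleates actin filaments (chr1:135324813-135368065), measured 10.4, 11.1 and 15.8 FPKM in controls and 18.02, 17.4, 18.6 and 19.5 FPKM in Foxl2LsL. Again control 4 was the closest control to the Foxl2LsL libraries without reaching them. The log2 fold change of Lmod1 was 0.55 ± 0.13 (SE; adjusted p = 0.0144, limma). Without control 2 its adjusted p was 0.0568, over a range of 0.000341 to 0.0568 across all alternatives.

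Myl9, the regulatory light chain of smooth muscle myosin (chr2:156775408-156781657), measured 195, 193 and 371 FPKM in controls and 510, 355, 428 and 428 FPKM in Foxl2LsL. Here the groups overlapped, because control 4 exceeded Foxl2LsL 2. On the log2 scale Myl9 rose by 0.82 ± 0.24 (SE; adjusted p = 0.0289, limma), and the call was lost without control 1 (adjusted p = 0.0866), without control 2 (0.103) and without Foxl2LsL 1 (0.0669), 3 (0.0671) or 4 (0.0612). It was also lost with no filter on low values (0.0548). Across all alternatives its adjusted p ran from 0.000665 to 0.103.

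Acta2, smooth muscle alpha actin and the usual marker of this cell type (chr19:34240336-34255585, minus strand), did not pass the test. It measured 321, 262 and 570 FPKM in controls and 601, 438, 523 and 556 FPKM in Foxl2LsL. Control 4 was above all but Foxl2LsL 1, while controls 1 and 2 were below every Foxl2LsL library. Its log2 fold change was 0.53 ± 0.25 (SE; adjusted p = 0.128, limma) with all libraries and 0.86 (adjusted p = 0.00484) without control 4, over a range of adjusted p from 0.00264 to 0.386 across the alternatives. Actg2, the enteric gamma actin of visceral smooth muscle, had the widest control group of the members, at 62.2, 72.0 and 226 FPKM, against 202, 100.3, 126 and 152 FPKM in Foxl2LsL. No other library was as high as control 4 for this gene. The coefficient of variation of Actg2 was 76.6% in controls and 29.9% in Foxl2LsL, and its log2 fold change of 0.48 ± 0.45 (SE) had an adjusted p of 0.423.

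The remaining filament genes did not pass. Cnn1, calponin, measured 56.9 to 134 FPKM in controls and 104 to 148 in Foxl2LsL (log2 fold change 0.61, adjusted p = 0.117, limma), and control 4 was 2.17 times the mean of controls 1 and 2. Cnn2, the more widely expressed calponin, measured 38.4 to 72.9 FPKM and 53.6 to 75.3 FPKM. Cald1, caldesmon, which holds back the actin-activated myosin ATPase, measured 62.0 to 95.6 FPKM and 83.3 to 96.3 FPKM. Control 4 lay within the Foxl2LsL range for each of these 3. The tropomyosins, coiled coils along the actin filament, showed the reverse order for control 4. Tpm1 measured 131, 129 and 264 FPKM in controls and 146 to 176 in Foxl2LsL, and Tpm2 measured 66.1, 63.0 and 146 FPKM and 83.5 to 106. Control 4 was above every Foxl2LsL library for both tropomyosins. Their log2 fold changes were -0.04 for Tpm1 (0.0118 with median centring) and 0.13 for Tpm2 with all libraries, and 0.30 and 0.51 without control 4. Smtn, smoothelin of contractile smooth muscle cells, measured 58.3 to 77.7 FPKM in controls and 78.8 to 87.0 in Foxl2LsL without overlap, yet its log2 fold change of 0.27 had an adjusted p of 0.0663 (limma). Actins, tropomyosins and light chains have near-identical relatives elsewhere in the genome, and how the counting treated fragments shared between them is not given in the sources used here.

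**Figure D3:**
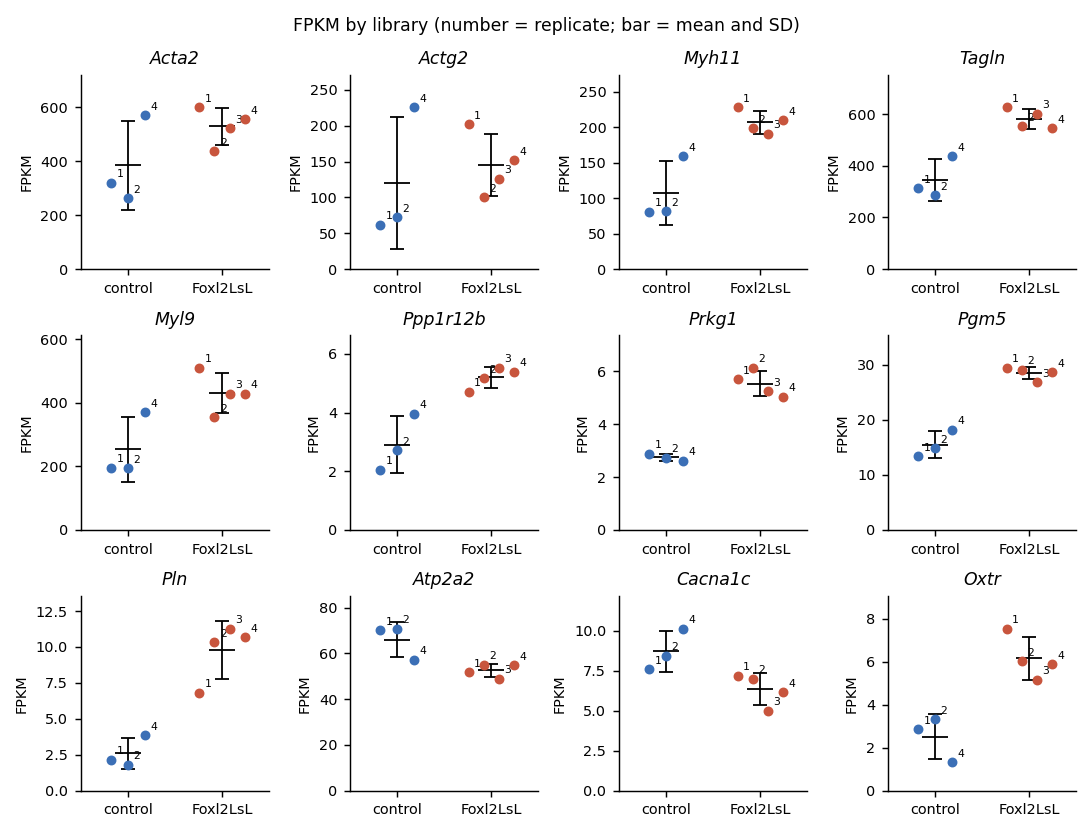
FPKM of 12 members in each library, with the replicate number beside each point and the group mean and SD as a bar; every axis starts at 0. Control 4 (blue, number 4) reaches the Foxl2LsL points for Acta2, Actg2 and Myl9, stays below them for Myh11, Tagln, Ppp1r12b, Prkg1, Pgm5 and Pln, and is the lowest point of all for Oxtr at 1.34 FPKM.

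The switch that sets myosin phosphorylation held 6 members, of which 2 were higher, 0 lower and 4 not past. The shares over all tested genes were 16.7% higher and 23.9% lower. Mylk, myosin light chain kinase, measured 64.3, 69.9 and 102 FPKM in controls and 96.9 to 106 in Foxl2LsL (log2 fold change 0.38, adjusted p = 0.0772, limma). Only control 4 reached the Foxl2LsL range. Ppp1r12b, a targeting subunit of myosin phosphatase abundant in striated and smooth muscle (chr1:134754658-134955963, minus strand), measured 2.06, 2.72 and 3.96 FPKM in controls and 4.71, 5.17, 5.53 and 5.39 FPKM in Foxl2LsL. All 4 Foxl2LsL libraries were above all controls, with a log2 fold change of 0.69 ± 0.16 (SE; adjusted p = 0.0109, limma). Ppp1r12a, the main targeting subunit of the phosphatase in smooth muscle, measured 17.2, 24.3 and 23.5 FPKM in controls and 25.5 to 29.2 in Foxl2LsL without overlap. For Ppp1r12a it was control 1 that stood low, with control 4 just under control 2, and the log2 fold change of 0.34 had an adjusted p of 0.0537.

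Prkg1, protein kinase G, was the member with the smallest adjusted p. It measured 2.88, 2.74 and 2.62 FPKM in controls and 5.70, 6.13, 5.26 and 5.04 FPKM in Foxl2LsL (chr19:30564487-31765268, minus strand). Control 4 was the lowest control here, and every Foxl2LsL library was well above all 3. The mean rose from 2.74 ± 0.129 (SD, n = 3) to 5.53 ± 0.484 (SD, n = 4), 2.02 times, with a log2 fold change of 0.80 ± 0.09 (SE; adjusted p = 0.000647, limma). The value without control 4 was 0.78. Both other phosphoproteins of this switch were not called. Ppp1r14a (CPI-17, the inhibitor of myosin phosphatase) measured 28.7 to 55.8 FPKM in controls and 28.7 to 38.3 in Foxl2LsL, and Hspb6 (the small heat shock protein HSP20) measured 6.35 to 9.32 and 6.29 to 8.15 FPKM. Both genes were highest in control 4.

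SRF and its coactivator, the drivers of this gene programme, were not called. Myocd, myocardin, measured 0.986, 1.08 and 1.46 FPKM in controls and 1.70, 1.64, 1.18 and 1.34 FPKM in Foxl2LsL (log2 fold change 0.18, adjusted p = 0.282, limma). Control 4 lay inside the Foxl2LsL range. Srf measured 27.6, 22.6 and 31.3 FPKM in controls and 23.7, 21.1, 23.6 and 23.9 FPKM in Foxl2LsL (log2 fold change -0.22, adjusted p = 0.154, limma). Control 2 was the only control among the Foxl2LsL values of Srf. Without it Srf passed the threshold in the lower direction, at a log2 fold change of -0.34 (adjusted p = 0.0364, over 0.0364 to 0.817 across the alternatives).

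The letters of the SRF element were looked up in the promoter windows of RefSeq (250 bases before to 50 after an annotated start, GRCm38.p6), because most of these genes are textbook SRF targets and the drivers themselves were not called. A CArG box was taken as CC, then 6 letters that are each A or T, then GG, on either strand. Boxes were counted over the whole window, and those printed below all lay before the start. A window was matched for 33 of 39 members. The 6 without one were Tagln, Nexn, Myocd, Actg2, Myh11 and Atp2a2. A box was present for 5 of these 33 (15.2%). Of all 27025 RefSeq genes with a window, whether tested here or not, 488 (1.81%) had one. A run differing from the box by 1 of the 6 middle letters was present for 7 members (21.2%) against 9.69%. Of the 9 called members with a window, 1, Myl9, had a box. It is shown with the 4 others that had one, which were picked after their values were seen, so that the boxes can be compared (5′ to 3′ on the gene's strand, box in capitals):
Myl9 (chr2:156775283-156775332, plus strand): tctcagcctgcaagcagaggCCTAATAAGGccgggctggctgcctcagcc
Srf (chr17:46556195-46556264, minus strand): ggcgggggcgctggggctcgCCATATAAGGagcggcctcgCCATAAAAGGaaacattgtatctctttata
Cnn2 (chr10:79988524-79988573, plus strand): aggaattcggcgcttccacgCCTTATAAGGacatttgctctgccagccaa
Vcl (chr14:20929151-20929200, plus strand): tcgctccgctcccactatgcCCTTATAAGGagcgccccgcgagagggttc
Ldb3 (chr14:34588687-34588736, minus strand): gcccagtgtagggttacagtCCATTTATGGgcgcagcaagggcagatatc
The box of Myl9 began at position -161 from the start, the 2 boxes of Srf at -82 and -62, that of Cnn2 at -56 that of Vcl at -227 and that of Ldb3 at -35 and -109 from its 2 annotated starts. Cnn2 and Vcl had the same 10 letters. The window of Acta2 held 2 runs that each differ from the box by 1 letter, at -84 and -34, and is shown because Acta2 is the reference gene of the lineage:
Acta2 (chr19:34255378-34255477, minus strand): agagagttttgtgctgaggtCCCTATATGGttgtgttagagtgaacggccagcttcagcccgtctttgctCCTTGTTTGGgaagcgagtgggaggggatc
A match describes these letters in this window, and of the 5 genes with a full box Myl9 was higher, while Srf, Cnn2, Vcl and Ldb3 did not pass.

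The 13 genes of dense bodies, intermediate filaments and adhesion plaques held 2 higher members, 0 lower and 11 not past, with a median log2 fold change of 0.18. Among all tested genes the shares were 16.7% higher and 23.9% lower. For all 13, the highest control was control 4. Pgm5, aciculin, an adhesion plaque protein of muscle that associates with dystrophin (chr19:24678261-24861842, minus strand), measured 13.4, 14.8 and 18.2 FPKM in controls and 29.4, 29.1, 26.8 and 28.6 FPKM in Foxl2LsL. The groups stood far apart, and the Foxl2LsL libraries lay close together (coefficient of variation 4.07%). Pgm5 rose by 0.85 ± 0.10 on the log2 scale (SE; adjusted p = 0.000998, limma). Synm, synemin, an intermediate filament protein that links desmin to adhesion sites (chr7:67730161-67759742, minus strand), measured 3.82, 4.12 and 6.47 FPKM in controls and 7.63, 6.58, 6.74 and 6.67 FPKM in Foxl2LsL. The groups did not overlap, by a small margin between control 4 and Foxl2LsL 2. The log2 fold change of 0.47 ± 0.15 (SE; adjusted p = 0.0406, limma) lost its call without any single library other than control 4, with adjusted p of 0.0675 to 0.132 in those 6 fits. It was also lost with no filter on low values (0.0689). Over all alternatives the adjusted p of Synm ran from 0.00144 to 0.132.

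The other 11 of this group did not pass. Des, desmin, measured 56.1, 67.2 and 115 FPKM in controls and 75.0 to 105 in Foxl2LsL, Synpo2, an actin-bundling dense body protein, 17.9, 23.7 and 34.9 against 24.6 to 28.1, and Pdlim3, an alpha-actinin partner, 80.2, 74.2 and 139 against 87.8 to 112. In these 3, control 4 was above every Foxl2LsL library and the other controls were below them. Their log2 fold changes were 0.20, 0.13 and 0.09, and 0.50, 0.38 and 0.37 without control 4. Nexn, nexilin, an actin-binding protein, measured 5.74, 6.97 and 11.2 FPKM in controls and 10.6 to 12.9 in Foxl2LsL (log2 fold change 0.55, adjusted p = 0.0544, limma). Ldb3, a PDZ-LIM protein that binds alpha-actinin, measured 0.826, 0.925 and 1.53 FPKM in controls and 1.38 to 2.30 in Foxl2LsL (log2 fold change 0.38, adjusted p = 0.0988). For both, only control 4 reached the Foxl2LsL libraries.

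The broadly expressed adhesion and actin-linking members did not pass either. Tln1, talin, which couples integrins to actin, measured 34.1 to 37.8 FPKM in controls and 34.6 to 38.1 in Foxl2LsL (log2 fold change 0.01, adjusted p = 0.935, limma). Vcl, vinculin, measured 34.98 to 45.03 and 39.5 to 45.3 FPKM, and Flna, filamin A, 190 to 275 and 216 to 245 FPKM. The log2 fold changes of Vcl and Flna were 0.12 and 0.09. Actn1, alpha-actinin, measured 70.7 to 86.0 FPKM in controls and 77.8 to 95.8 in Foxl2LsL, and Csrp1, a LIM protein of smooth muscle, 169 to 245 and 206 to 243 FPKM. Pdlim7, another PDZ-LIM protein, was an exception to the larger control spread on the log2 scale, as were Prkg1 and Cacna1c of other groups. Pdlim7 measured 38.3 to 46.9 FPKM in controls and 27.2, 32.2, 44.0 and 47.1 FPKM in Foxl2LsL 2, 3, 4 and 1. Its SD was larger in Foxl2LsL (9.45 FPKM) than in controls (4.60 FPKM), and its log2 fold change of -0.23 had an adjusted p of 0.361.

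Calcium handling and excitation was the group with calls in both directions, with 2 of 6 higher, 2 lower and 2 not past. Of all tested genes 16.7% were higher and 23.9% lower, and 6 genes are too few to set against those shares. Pln, phospholamban, the inhibitor of the calcium pump of the sarcoplasmic reticulum (chr10:53337686-53345999), had the largest change of all members. It measured 2.16, 1.80 and 3.85 FPKM in controls and 6.83, 10.3, 11.3 and 10.7 FPKM in Foxl2LsL. Control 4 was the highest control and Foxl2LsL 1 the lowest of its group, and the groups did not overlap. The mean rose 3.75 times, from 2.61 ± 1.09 (SD, n = 3) to 9.78 ± 2.005 (SD, n = 4), and the fitted log2 change was 1.60 ± 0.22 (SE; adjusted p = 0.00164, limma). The exons of Pln share 1644 bases with an antisense gene, Gm47644, and 141 bases with Cep85l. Among other called members, those of Tagln, Ppp1r12b and Synm share 1241, 710 and 426 bases with the antisense genes Gm48529, Gm28892 and Gm45102. None of these Gm genes has FPKM values here. Among members not called, Vcl shares the most, 2090 bases with the antisense gene Ap3m1 (mean 11.3 FPKM in controls and 9.62 in Foxl2LsL). The use of strand in counting is not given in the sources used here, so reads of such pairs cannot be told apart. Atp2a2, the pump that phospholamban inhibits (SERCA2; chr5:122453513-122502225, minus strand), measured 70.1, 70.8 and 57.3 FPKM in controls and 51.8, 55.0, 49.0 and 54.9 FPKM in Foxl2LsL. Its lowest control was control 4, just above the highest Foxl2LsL library. The log2 fold change of -0.32 ± 0.09 (SE; adjusted p = 0.03, limma) kept its call without control 4 (-0.41) or without Foxl2LsL 2 (-0.34). The call was lost without control 1 (adjusted p = 0.0857), without control 2 (0.109) and without Foxl2LsL 1 (0.0619), 3 (0.0809) or 4 (0.0537), as it was with quantile normalization (0.0808), within a range of 0.00236 to 0.118 over the alternatives.

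Cacna1c, the pore of the L-type calcium channel through which depolarised muscle takes up calcium (chr6:118587240-119197384, minus strand), measured 7.596, 8.46 and 10.1 FPKM in controls and 7.19, 7.01, 5.01 and 6.16 FPKM in Foxl2LsL. The groups did not overlap, although control 1 and Foxl2LsL 1 were close, and control 4 was the highest library. The log2 fold change was -0.41 ± 0.14 (SE; adjusted p = 0.0448, limma). This call held without control 1 or without Foxl2LsL 1 and was lost without control 2 (adjusted p = 0.0978), without control 4 (0.114) and without Foxl2LsL 2 (0.0528), 3 (0.0886) or 4 (0.0956). Median centring (0.0738), quantile normalization (0.0782) and no filter (0.072) ended it too, within 0.0131 to 0.154 over the alternatives. Jph2, junctophilin, which ties the reticulum to the plasma membrane, measured 10.7 to 18.7 FPKM in controls and 12.7 to 19.7 in Foxl2LsL (log2 fold change 0.22, adjusted p = 0.405).

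Oxtr, the oxytocin receptor (chr6:112473683-112491035, minus strand), measured 2.87, 3.33 and 1.34 FPKM in controls and 7.53, 6.02, 5.16 and 5.88 FPKM in Foxl2LsL. In contrast to the filament genes, control 4 was the lowest of all 7 libraries, and the groups did not overlap. The mean rose from 2.51 ± 1.04 (SD, n = 3) to 6.15 ± 0.996 (SD, n = 4), with a log2 fold change of 1.06 ± 0.22 (SE; adjusted p = 0.00702, limma) and 0.79 without control 4. Gja1, connexin 43 of the gap junctions that couple muscle cells at labour, measured 29.0, 30.1 and 44.8 FPKM in controls and 34.3, 28.4, 24.8 and 27.2 FPKM in Foxl2LsL. Control 4 was the highest library, Foxl2LsL 1 lay above the other controls, and the log2 fold change of -0.25 had an adjusted p of 0.276 (limma). Both genes are also expressed outside muscle in the uterus, and whole tissue does not separate those sources.

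Ratios of FPKM within a library were compared because they do not depend on the scaling of that library. Tests were two-sided exact permutation tests over all 35 ways to split the libraries 3 to 4, which cannot give a p under 0.0571, and 8 ratios were computed, 5 of them picked after their values were seen. The ratio of Pln to Atp2a2, the inhibitor to its pump, was 0.0308, 0.0255 and 0.0673 in controls and 0.132, 0.188, 0.230 and 0.195 in Foxl2LsL. The groups did not overlap (exact permutation p = 0.0571, the smallest possible, and 0.114 after Benjamini-Hochberg adjustment over the 8). Every Foxl2LsL library was above all controls for Pln and below all controls for Atp2a2. The ratio therefore had to separate, and its p adds nothing to the calls of the single genes. The ratio of Actg2 to Acta2, the visceral to the vascular-type actin, averaged 0.288 ± 0.102 (SD, n = 3) over controls, with 0.270 ± 0.0478 (SD, n = 4) over Foxl2LsL libraries (exact permutation p = 0.857, adjusted 0.857). The ratio of Mylk to Ppp1r12a, the kinase to the phosphatase subunit, was 3.66 ± 0.737 (SD, n = 3) and 3.68 ± 0.190 (SD, n = 4) (exact permutation p = 0.686, adjusted 0.784). Neither ratio had separate groups, and controls 1, 2 and 4 spanned more than the Foxl2LsL libraries in both.

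Muscle forms were then set against their nonmuscle relatives, as ratios picked after their values were seen. Myh11 relative to the nonmuscle myosins Myh9 plus Myh10 was 0.779, 0.797 and 1.66 in controls and 3.15, 2.33, 2.29 and 2.30 in Foxl2LsL. Myl9 relative to the nonmuscle light chains Myl12a plus Myl12b was 0.551, 0.651 and 1.24 in controls and 1.93, 1.65, 1.74 and 1.57 in Foxl2LsL. Both ratios left no overlap between groups (exact permutation p = 0.0571 for each, the smallest possible; adjusted 0.114). For Myh11 this rested on leaving out Myh14, another nonmuscle myosin heavy chain, which rose from 14.8 ± 6.37 (SD, n = 3) to 38.5 ± 5.65 FPKM (SD, n = 4). With Myh14 in the denominator, an alternative chosen after seeing the data, the ratio was 0.659, 0.679 and 1.54 in controls and 2.05, 1.71, 1.54 and 1.56 in Foxl2LsL, and control 4 lay just above Foxl2LsL 3 (exact permutation p = 0.114). The ratio of Acta2 plus Actg2 to Actb plus Actg1 was 0.388, 0.407 and 0.856 in controls and 0.702 to 0.873 in Foxl2LsL (exact permutation p = 0.229, adjusted 0.366), and that of Tpm1 plus Tpm2 to Tpm3 plus Tpm4 was 0.798, 0.844 and 1.83 against 1.49 to 1.75 (exact permutation p = 0.286, adjusted 0.381). For actin and tropomyosin, control 4 lay among or above the Foxl2LsL libraries. Of the nonmuscle forms themselves, Myh9 (-0.38, adjusted p = 0.0145, limma), Myl12a (-0.35, adjusted p = 0.0076) and Tpm4 (-0.80, adjusted p = 0.000805) were lower in Foxl2LsL, and Myh14 (1.41, adjusted p = 0.00775) was higher. Myh10, Myl12b, Tpm3, Actb and Actg1 did not pass, with adjusted p of 0.546, 0.0708, 0.26, 0.603 and 0.966. The ratio of Atp2a3 (SERCA3) to Atp2a2 was also picked after its values were seen. It was 0.163 to 0.269 in controls and 0.613 to 0.879 in Foxl2LsL (exact permutation p = 0.0571, the smallest possible, adjusted 0.114). Every Foxl2LsL library was above all controls for Atp2a3 and below all controls for Atp2a2. This ratio too therefore had to separate.

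**Figure D4:**
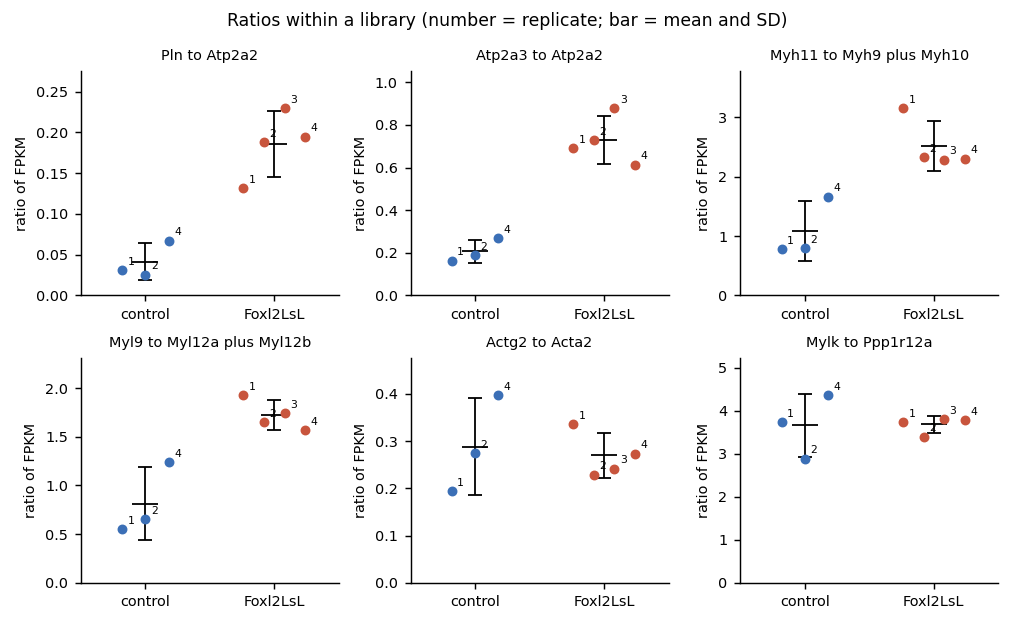
Ratios of FPKM within each library, with the replicate number beside each point and the group mean and SD as a bar; every axis starts at 0. The groups are apart for Pln to Atp2a2, Atp2a3 to Atp2a2, Myh11 to Myh9 plus Myh10 (Myh14 not included) and Myl9 to Myl12a plus Myl12b, and overlap for Actg2 to Acta2 and Mylk to Ppp1r12a.

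Genes around the members were taken from 5 lists and read against the same background. Of 53 other contractile and cytoskeletal genes tested, 13 were higher and 14 lower, and the 3 with the largest change were Tnc (tenascin C, a matrix glycoprotein; -2.37, adjusted p = 0.000411, limma), Acta1 (skeletal actin; -1.70, adjusted p = 0.0331) and Myh14 (1.41, given above). The call of Acta1, which had 14.2, 11.3 and 51.8 FPKM in controls 1, 2 and 4, was lost without Foxl2LsL 2, 3 or 4 (adjusted p up to 0.0754 and down to 0.0275 over the alternatives). Of 41 contraction signalling genes, 10 were higher and 6 lower, led by Rgs5 (a regulator of G protein signalling that also marks pericytes; -2.01, adjusted p = 0.00134), Rhob (a small GTPase; -1.18, adjusted p = 0.0027) and Ppp1r14c (an inhibitor of protein phosphatase; 1.15, adjusted p = 0.00919). The shares higher were 24.5% and 24.4% in these lists, where 16.7% of all tested genes were higher, and the shares lower were 26.4% and 14.6%, where 23.9% were.

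The 10 higher signalling genes were Rock1, Ppp1cb, Ppp1r14c, Arhgap42, Rnd3, Gnaq, Gucy1a1, Gucy1b1, Pde5a and Mrvi1, and the 6 lower were Ppp1cc, Ppp1r12c, Rhob, Gna11, Gna12 and Rgs5. A few are given singly because they act on or beside Prkg1; they were picked after their values were seen, so they show nothing about that pathway as a group. Gucy1a1 and Gucy1b1, the subunits of soluble guanylate cyclase, rose by 0.52 (adjusted p = 0.00877, limma) and 0.61 (adjusted p = 0.0157). Mrvi1, the protein kinase G substrate that restrains calcium release from the reticulum, rose by 0.65 (adjusted p = 0.00316), and Pde5a, the phosphodiesterase that breaks down cyclic GMP, by 0.51 (adjusted p = 0.00797). Pde3a, another phosphodiesterase of the list, did not pass (0.12, adjusted p = 0.551). Kcnmb1, the beta subunit of the large-conductance potassium channel of smooth muscle and one of the 13 higher genes of the first list, stood at 2.30, 3.08 and 3.06 FPKM in controls and 7.02, 8.09, 7.19 and 7.82 FPKM in Foxl2LsL. It rose by 1.17 (adjusted p = 0.00032, limma), and it was also picked after its values were seen.

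Of 29 other calcium genes tested, 5 were higher and 3 lower. The largest changes were those of Cacna1g, a T-type calcium channel (-1.55, adjusted p = 0.000317, limma), Atp2a3, the pump SERCA3 (1.45, adjusted p = 0.000296), and Trpc4, a receptor-operated cation channel (0.75, adjusted p = 0.00536). Atp2a3 stood at 11.4, 13.3 and 15.4 FPKM in controls and 35.7, 40.1, 43.1 and 33.7 FPKM in Foxl2LsL, so its rise was opposite in sign to the fall of Atp2a2. Of 22 receptors for contracting and relaxing agonists and gap junction partners, 4 were higher and 4 lower. Rxfp1, the relaxin receptor, fell by 1.24 (adjusted p = 0.00119), whereas Ptger4, a prostaglandin E2 receptor, and Ptgir, the prostacyclin receptor, rose by 1.11 (adjusted p = 0.00467) and 1.02 (adjusted p = 0.00291). Of 36 genes that act with SRF in transcription, 6 were higher and 4 lower, led by Klf4, a repressor of the contractile programme in vascular muscle (2.26, adjusted p = 0.000532), Heyl, a Notch target (-1.20, adjusted p = 0.00867), and Meis1, a homeobox factor (1.11, adjusted p = 0.00415). Klf4 is abundant in epithelium as well, so its source in whole uterus is not known from these data. These last 3 lists had 17.2%, 18.2% and 16.7% of tested genes higher, close to the background of 16.7%, and 10.3%, 18.2% and 11.1% lower.

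**Figure D5:**
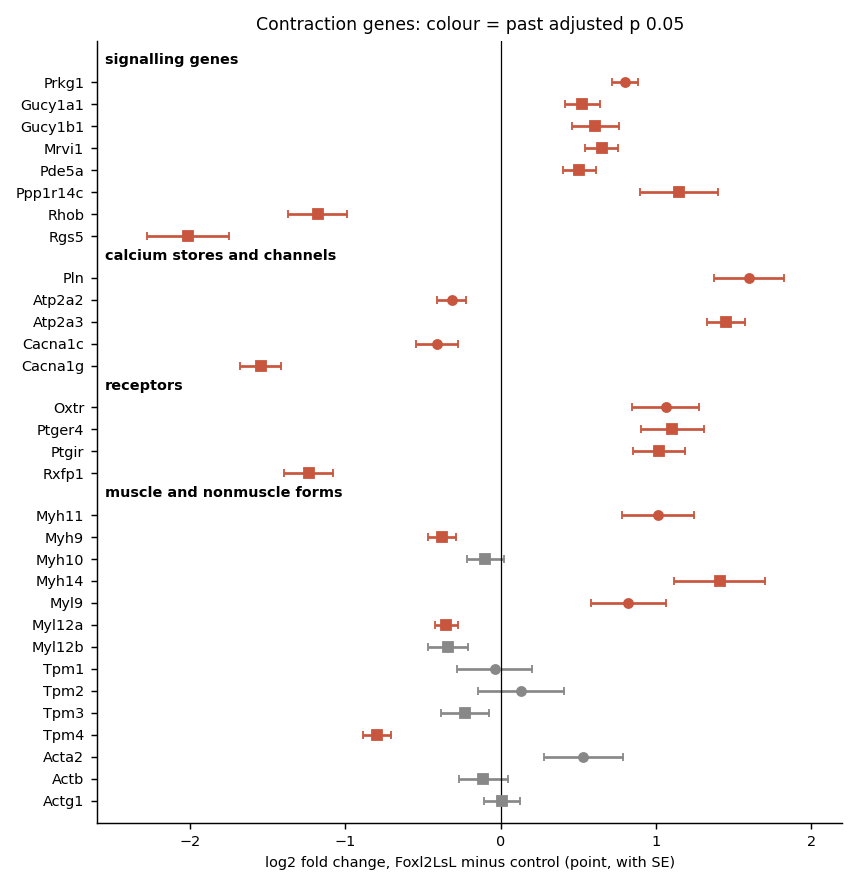
Log2 fold change on the log2(FPKM + 1) scale, Foxl2LsL minus control, with its standard error, for members (circles) and genes of the surrounding lists (squares); coloured points are past an adjusted p of 0.05 and grey points are not. Gucy1a1, Gucy1b1, Mrvi1, Pde5a and the nonmuscle forms other than Myh14 were picked after their values were seen. Atp2a2 and Atp2a3 lie on opposite sides of 0, and among heavy chains Myh11 and Myh14 lie to the right and Myh9 to the left.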

How the data were processed

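RNA from 7 libraries of whole mouse uterus was analysed from the table of FPKM values that the authors deposited, with 1 column per library and no pooling, per the file headers. Each gene's length in bases is another deposited value. STAR 2.5.2b, featureCounts 1.5.0-p1 of Subread, DESeq2 1.12.4 and the build mm10 are named in the submitters' processing notes, with no role or setting. Whole fragments were recovered from the FPKM steps: 100% of 1653 to 1832 low values per library lay within 0.1 of a whole number (genes up to 1500 bases, up to 20 multiples), and 74.4% to 77.5% of the denominators lay on listed genes. Intervals from fragments cover counting error only.

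Genes with a mean of at least 1 FPKM were fitted as log2(FPKM + 1) with limma 3.58.1 in R 4.3.3 (lmFit, eBayes with trend), with Benjamini-Hochberg adjustment over 13334 genes and a threshold of 0.05. Fold changes on this scale understate those of low genes. The fit was tested on data with known answers. Python 3.11.15, pandas 2.3.3, scipy 1.17.1 and matplotlib 3.10.9 served for the rest. Gene positions and promoter windows came from RefSeq, and gene strands and exon overlaps from GENCODE M21.

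The 39 members, the lists and the tests were chosen with earlier results of these data known. Every member was named, and in each surrounding list up to 3 genes past the threshold with the largest absolute change. Gucy1a1, Gucy1b1, Mrvi1, Pde5a, Pde3a, Kcnmb1 and the nonmuscle forms other than Myh14 were picked after their values were seen. Marker lists not printed in the results gave summed FPKM, controls then Foxl2LsL, of 7.65 to 13.2 and 10.9 to 14.2 (cardiac muscle), 24.6 to 36.0 and 37.4 to 60.2 (leukocytes), 4.79 to 5.14 and 4.92 to 6.59 (Schwann cells and neurons), 75.6 to 126 and 40.3 to 101 (mesothelium), and 96.3 to 198 and 134 to 162 (stress and RNA quality genes, lowest in control 4). Alternatives were another pseudocount, filter, scaling or variance model, limma-voom on recovered fragments, and each library left out.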

Additional observations from a re-analysis of the deposited data

Results flagged for a closer look

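In the 4 Foxl2LsL libraries 1 library stood apart from the other 3 for 5 of 47 values checked, by a gap above Dixon's critical value for a group of 4; chance gives about 1 in 20 such gaps. Srf was lowest in Foxl2LsL 2, at 21.1 FPKM against 23.6 to 23.9. Synm was highest in Foxl2LsL 1, at 7.63 FPKM against 6.58 to 6.74, and its call was lost without that library (adjusted p = 0.0909, limma). Synpo2 was lowest in Foxl2LsL 3, at 24.6 FPKM against 27.6 to 28.1. The ratio of Mylk to Ppp1r12a was lowest in Foxl2LsL 2, at 3.40 against 3.74 to 3.80. The ratio of Myh11 to Myh9 plus Myh10 was highest in Foxl2LsL 1, at 3.15 against 2.29 to 2.33.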

How the results depend on the processing

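The comparison across genes was refitted under 19 alternatives, of which the filter of 5 FPKM left 34 of the 39 members, and 3 ratios (Actg2 to Acta2, Pln to Atp2a2, Mylk to Ppp1r12a) were recomputed with each of the 7 libraries left out. The count of members higher, 10 with all libraries, stayed at 7 to 13 in 17 of them and reached 24 with array weights and 28 without control 4 (range 7 to 28 with a library left out). Over all 13334 tested genes, 2224 were higher with all libraries, 2872 with array weights and 2131 without control 4. Array weights thus raised calls among all genes too, from 5409 to 7250 in either direction. The members lower, 2, came to 1 with median centring or no filter, 0 with quantile normalization, and 0 to 1 with a library left out. Over all tested genes, 3185 were lower in the full fit, 2637 with median centring and 2753 with quantile normalization. With no filter 3370 of 21011 genes were lower, and with a library left out 2195 to 3197 of 13334. Median centring and quantile normalization moved the share of higher among all calls from 41.1% to 50.4% and 49.2%. The members' median of 0.27 ran from 0.162 to 0.473 with a library left out.

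Deviations of libraries numbered 1, 2 and 4 in both groups correlated at 0.228, -0.0306 and -0.112, so the numbers were not taken to pair them. The replicate block on these numbers gave 3243 genes past the threshold, 8 members higher and 0 lower; the unblocked fit of these libraries gave 3975, 8 and 0. The block also ended the calls of Myh14, Ppp1r14c and Myh9 (adjusted p = 0.0538, 0.0517 and 0.0515, limma). limma-voom on recovered fragments called 10 members higher and 2 lower, and 5381 genes.

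Some genes that were not called changed sign. With array weights the values were 0.24 for Tpm1, 0.23 for Ppp1r14a, 0.037 for Hspb6 and 0.10 for Actb. Tpm1 was 0.0118 with median centring and Tln1 -0.0108 with a common sum. Actg1 was -0.0122 with a common sum, -0.0511 with quantile normalization and -0.0309 in the blocked and the unblocked fit of numbers 1, 2 and 4. With a library left out, the log2 fold change ran from -0.22 to 0.30 for Tpm1, -0.0829 to 0.515 for Tpm2, -0.26 to 0.21 for Ppp1r14a, -0.21 to 0.0295 for Hspb6, -0.0158 to 0.50 for Des, -0.0874 to 0.38 for Synpo2, -0.0794 to 0.37 for Pdlim3, -0.0015 to 0.26 for Flna, -0.0224 to 0.0504 for Tln1, -0.20 to 0.0126 for Actb and -0.0546 to 0.10 for Actg1. The log2 difference in the ratio of Actg2 to Acta2 ran from -0.31 to 0.21, and of Mylk to Ppp1r12a from -0.13 to 0.16; that of Myh11 to Myh9 plus Myh10 was 1.302, and 0.95 with Myh14 in the denominator. The cause was not tested.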
